A study of Panagrellus redivivus with 189 samples.

Results

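The data compare embryos of 12 to 14 cells with embryos of 1 to 3 cells of *Panagrellus redivivus*, a free-living nematode, within the sample numbers 1 to 39 of a series of single-cell libraries. They are 7 of the 20 embryos of that series. The stage labels gave 32 libraries (16.9% of all), 23 of 12-14 cells and 9 of 1-3 cells. Libraries with fewer than 50 detected rows were left out, which removed 3 libraries of the 14-cell embryo. The 29 libraries used were 10 of 12-cell embryo 1 and 10 of the 14-cell embryo, against 1 each of 1-cell embryos 1 and 2, 2 of a 2-cell embryo with named cells (AB and P1), 2 of a 2-cell embryo with numbered cells and 3 of the 3-cell embryo. Counts were summed over the libraries of an embryo, so that the comparison was of 2 embryos of 12-14 cells against 5 embryos of 1-3 cells. That the 2 numbered 2-cell libraries came from the same embryo is not stated in the labels. No genotype, strain or treatment is given in the labels for any of these groups, and all libraries are labelled as embryonic cells. The sample titles, stages and numbers name no sequencing pool, so differences between embryos and between any such pools cannot be told apart.

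Each library is taken here as a blastomere, an early embryonic cell. Blastomeres were picked by hand from embryos freed of the egg shell and prepared with CEL-Seq2. That method barcodes each cell and reads the 3′ ends of its RNAs. The values are raw counts, in which 1572 complete rows of the count table stand for genes. The rows carry no gene identifier, so genes are called features here and named by their row number, no function can be given to any of them, and no marker of a cell type could be looked up.

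The first divisions of animal embryos run largely on RNA that the mother placed in the egg. Part of that maternal RNA is later degraded while the embryo starts to transcribe its own genes, a handover known as the maternal-to-zygotic transition. In *Caenorhabditis elegans*, a related nematode, the zygote divides into AB and P1, and a series of P cells leads to P4, the founder of the germ line, whose sister is the D cell. The P cells of that species are known for holding back transcription and for retaining maternal RNAs that other cells lose.

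The 2 groups differed in depth. In 6 rows that hold much of every library, left out of all comparisons below unless said otherwise, the 12-14 cell libraries had 60.5% to 92.9% of their counts and the 1-3 cell libraries 23.1% to 69.7%. The counts in these rows overlapped, at 1892 to 4653 in the 12-14 cell libraries and 3002 to 4343 in the 1-3 cell libraries. The highest count of any row in a library used was 1024, reached in the 6 rows. Whether counting had a ceiling there is not given in the sources and was not tested. Outside the 6 rows, the 12-14 cell libraries had 180 to 2218 counts (median 967.5) and the 1-3 cell libraries 1858 to 14376 (median 5943). The embryo sums were closer. They came to 8981 and 10987 counts in the 12-cell and 14-cell embryos, against 7242 and 8255 in 1-cell embryos 1 and 2, 7117 and 7801 in the 2-cell embryos of named and of numbered cells, and 25575 in the 3-cell embryo. The part of depth and of the 6 rows in the results below was not tested, except where a value at equal depth is given. Levels are CPM, the counts scaled to a fixed total, over the counts outside the 6 rows after TMM scaling. They are shares of what was counted in an embryo, so a higher level of one feature and a lower level of the rest cannot be told apart in amount of RNA.

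Most of the features abundant enough to test differed between 12-14 cell and 1-3 cell embryos. Of 766 rows with a count in the 7 embryos, 278 passed the filter on low counts and were tested with edgeR's quasi-likelihood test. The test called 222 features (79.9% of those tested) at a Benjamini-Hochberg adjusted p under 0.05. Of the features tested, 43.5% were higher in 12-14 cell embryos and 36.3% were lower, and their counts are given by group below. In 220 features (79.1%) the levels of the 2 groups did not overlap. The filter on low counts also kept features well counted in only 1 of the groups. Such features had to differ, so the 79.9% and the 79.1% are in part set by the filter. Changes past 16-fold were found in 74 of the higher features and 24 of the lower ones.

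The balance of higher and lower calls depended on the scaling. The median log2 change over the 278 features was 0.24, and with DESeq2-style size factors (RLE) in place of TMM it was 1.03, a shift of 0.78. With those size factors 209 features were called, 71 of them lower, so that higher features made up 66.03% of the calls, against 54.5% with TMM. Of the 222 features called with TMM, 192 were also called with RLE and 0 changed sign. With each library thinned to at most 1000 counts, fewer features were tested and 63 were called, 43 higher and 20 lower.

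**Figure D1:**
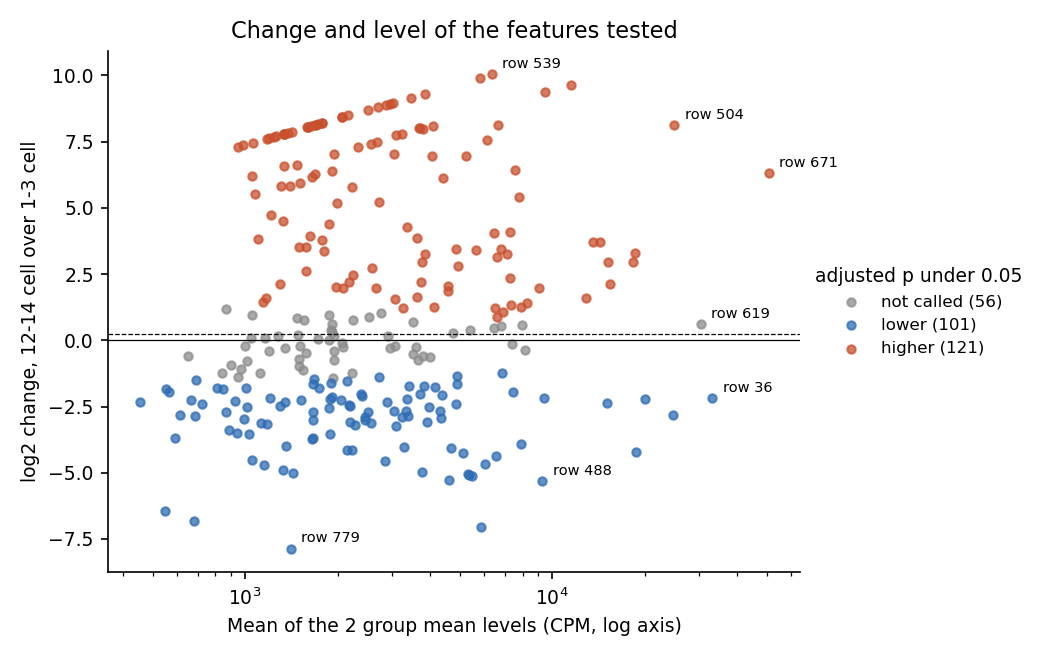
Each point is 1 of the 278 features tested, with the mean of the 12-14 cell and 1-3 cell levels on a log axis in CPM and the log2 change (12-14 cell over 1-3 cell) on the other. The dashed line marks the median change of 0.24, and the 222 features called lie on both sides of the 56 that did not pass the test.

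Outside the 6 rows, most counts lay in higher features at 12-14 cells and in lower features at 1-3 cells. The 6 rows themselves held 75.03% and 75.07% of all counts in the 12-cell and 14-cell embryos. Features higher at 12-14 cells held 67.1% and 72.05% of the counts outside the 6 rows at 12 and 14 cells, against 8.64% to 11.3% in the 5 embryos of 1-3 cells. Features lower at 12-14 cells held 8.16% and 5.27% in the 12-cell and 14-cell embryos, against 65.3% to 71.8% in 1-3 cell embryos. These shares restate the calls. With each embryo left out of the fit that chose the features, the higher and lower features held 63.8% and 7.18% of the counts of 12-cell embryo 1, and 64.2% and 4.61% of those of the 14-cell embryo. In each of the 1-3 cell embryos left out in the same way, the higher features held 7.49% to 18.3% and the lower features 64.2% to 71.4%. The embryo at 18.3% was the 3-cell embryo.

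The higher features fell into 3 groups by their counts at 1-3 cells. The first held 33 features with 0 counts in all 5 embryos of 1-3 cells, which made up 9.60% of the 12-14 cell counts. Each was counted in 11 to 19 of the 20 libraries of 12-14 cells, with a median of 15. The second held 24 features counted in 1 or 2 of the 5 early embryos, with 10.5% of the 12-14 cell counts and 0.0589% of the 1-3 cell counts. The third and largest held 64 features counted in at least 3 early embryos, with 49.7% of the 12-14 cell counts and 10.2% of the 1-3 cell counts. The first 2 groups passed the filter on low counts through the 12-14 cell embryos, so that they had to differ, and their number of calls supports nothing beyond the counts themselves. The same holds for features of the third group with few early counts, such as those named from it below.

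Among features with 0 counts at 1-3 cells, row 539 had the highest level at 12-14 cells, with 10762 and 14673 CPM in the 12-cell and 14-cell embryos. Both levels rest on at least 67 counts. It was counted in 19 of the 20 late libraries and in none of the 9 early ones. Set against a floor of 3 counts over the 5 early embryos, its share of the counts was at least 251-fold higher. Row 424 followed with 11083 and 12250 CPM in the 12-cell and 14-cell embryos, also in 19 of 20 libraries, and was at least 228-fold higher. Rows 1035, 1006, 353 and 1121 had 5622 to 7068 CPM at 12 cells and 6192 to 8346 CPM at 14 cells, against 0 counts in every 1-3 cell embryo, and were at least 150.99-, 136.7-, 118.2- and 115.4-fold higher. The 12-cell and 14-cell levels of these 6 features lay within a factor of 2 of each other, as did those of 30 of the 33 features in the group.

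The largest rises among features already counted in at least 3 early embryos were those of rows 504, 498, 831 and 744 and of a further feature described after them. All of them passed the filter on low counts through the 12-14 cell embryos, so that no p-value is given for them. Row 504 reached 34696 and 64616 CPM in the 12-cell and 14-cell embryos, against 132.5, 0, 258, 474 and 78.3 CPM in the 1-cell embryos 1 and 2, the 2-cell embryos of named and of numbered cells and the 3-cell embryo. Its early levels rest on 0 to 4 counts an embryo, and it was counted in all 20 late libraries. The log2 change was 8.13 ± 0.54 (SE). Row 498 had 12850 and 11577 CPM at 12 and 14 cells, against at most 129.2 CPM at 1-3 cells, with 1 count in each of 3 early embryos and 0 in the 1-cell embryos (log2 change 7.57). Rows 831 and 744 had 6907 to 11308 CPM in the late embryos, against at most 132.5 CPM in the early ones (log2 changes 6.97 and 6.97).

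The fifth-largest rise, the last in the second block of the heat map, was to 16705 and 13192 CPM at 12 and 14 cells. The early levels were 265, 441, 0, 118.5 and 78.3 CPM in the order above (log2 change 6.42 ± 0.50, SE). Unlike row 504, this feature was absent from the counts of several late libraries, 2 of the 12-cell embryo and 3 of the 14-cell embryo.

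The most abundant feature of the late embryos was row 671, which the rule for named features did not choose and which is described with its values seen. It had 95413 and 104870 CPM at 12 and 14 cells. In 1-3 cell embryos it had 132.5, 110.3, 258, 118.5 and 4578 CPM, in the same order as before. The 3-cell embryo thus stood apart, with up to 64 counts of row 671 in a library, against 1 or 2 counts in each of the other 4 early embryos. The log2 change of row 671 was 6.30 ± 0.70 (SE). Row 671 also passed the filter on low counts through the late embryos, so that no p-value is given for it.

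Among the features tested, loss to no count at all was rare in those that fell. Of the lower features, 3 had 0 counts in both late embryos, 13 were counted in 1 of them and 85 in both. The 85 held 6.44% of the counts at 12-14 cells and 63.7% at 1-3 cells, with a median log2 change of -2.55. These 85 were counted in a median of 6 of the 20 late libraries, at a median of 577 CPM. Lower features with few late counts passed the filter on low counts through the early embryos. They had to differ, so their number of calls supports nothing beyond the counts themselves. The 3 features with 0 late counts held 0.523% of the early counts. Another 79 rows counted only at 1-3 cells did not pass the filter and were not tested.

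Row 779 was the highest of the 3. It had 0 counts in the 20 late libraries, against 2120, 3088, 3101, 2844 and 2935 CPM in 1-cell embryos 1 and 2, the 2-cell embryos of named and of numbered cells and the 3-cell embryo. Every one of the 9 early libraries held a count of it. Against a floor of 3 counts over both late embryos it was at least 13.0-fold lower. It and the other 2 features without a late count passed the filter through the early embryos, so that they had to differ, and no p-value is given for them. Row 439 had 0 counts at 12-14 cells, against 663, 2206, 1292, 1659 and 1017 CPM at 1-3 cells, and was at least 5.85-fold lower. Row 875 had 0 counts at 12-14 cells, against 1458, 1985, 1034, 711 and 313 CPM at 1-3 cells, and was at least 3.98-fold lower. These bounds are set by the depth of both late embryos and cover counting error only.

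The largest falls among features still counted in both late embryos were those of rows 488, 347, 1186, 245 and 722. All of them passed the filter on low counts through the early embryos, so that no p-value is given for them. Row 488 had 482 and 404 CPM at 12 and 14 cells (3 counts each), against 19082, 22939, 15893, 17183 and 15535 CPM in the 1-3 cell embryos in the order above. Its log2 change was -5.32 ± 0.59 (SE). The ratio of summed counts was 39.7-fold lower at 12-14 cells, with an exact 95% counting interval of 18.2 to 108.3. Rows 347, 1186 and 245 had 160.6 to 321 CPM in the late embryos, from 1 or 2 counts each, against 6809 to 14084 CPM in the early ones (log2 changes -5.28, -5.13 and -5.09).

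Row 722 had 482 and 134.6 CPM at 12 and 14 cells (log2 change -5.06 ± 0.73, SE). Its early levels were 15902, 15109, 11371, 6399 and 2896 CPM in the same order of embryos. Within the early embryos it was thus highest in the 1-cell embryos and lowest in the 3-cell embryo. Row 1186 ran the other way, with its highest early level, 13383 CPM, in the 3-cell embryo.

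Abundant early features outside the rule, chosen after their values were seen, fell less far. Row 36, the most abundant feature at 1-3 cells, had 17508 and 6462 CPM at 12 and 14 cells, against 37899, 43010, 60085, 57710 and 73723 CPM at 1-3 cells (log2 change -2.19 ± 0.56, SE, edgeR adjusted p = 0.00069). Row 1219 averaged 6068 CPM at 12-14 cells and 43423 CPM at 1-3 cells (log2 change -2.84). Row 486 averaged 1930 CPM at 12-14 cells and 35461 CPM at 1-3 cells (log2 change -4.22). All 3 were still counted in both late embryos.

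**Figure D2:**
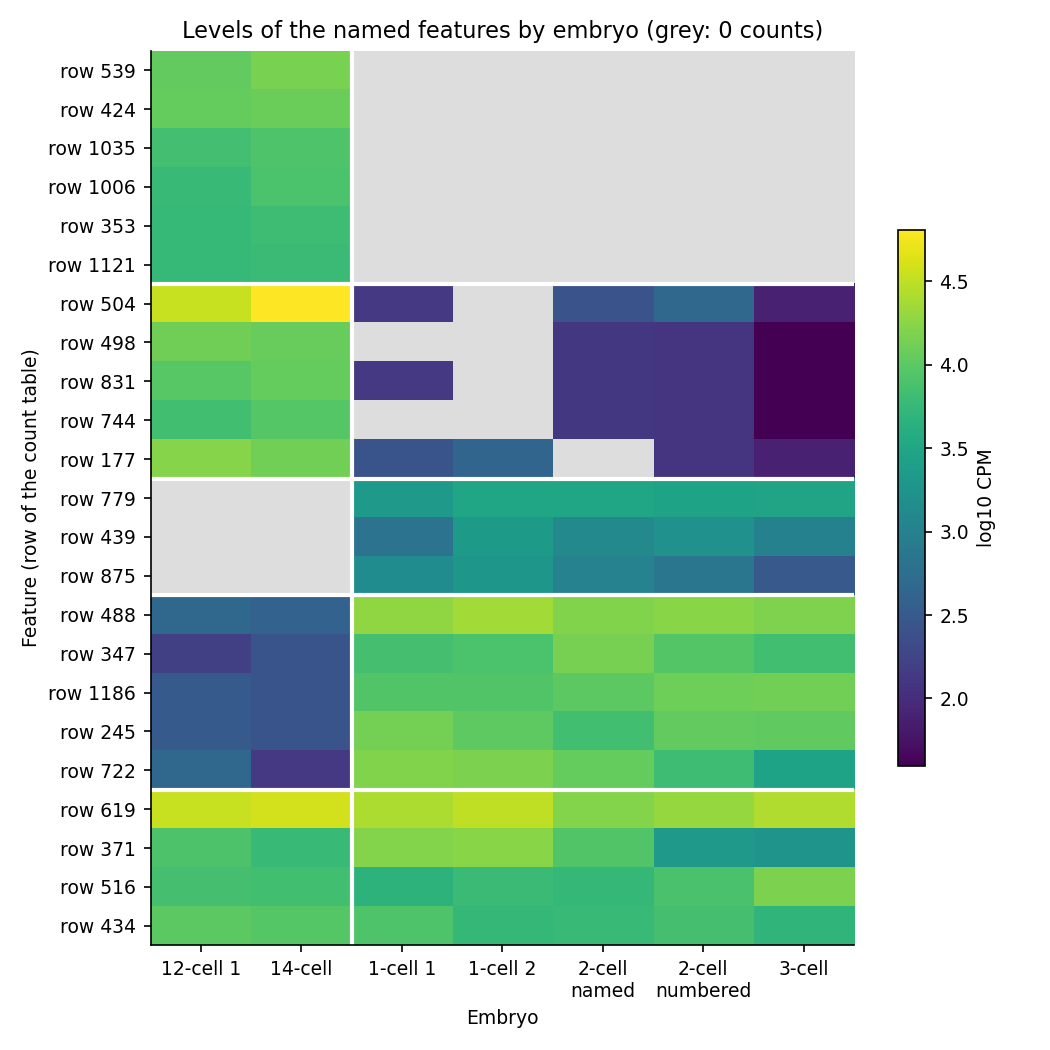
Rows of the heat map are the 23 features named by rule, columns the 7 embryos (12-14 cell left, 1-3 cell right), and colour the level in log10 CPM, with grey for 0 counts. From the top, the blocks are features without an early count, the largest rises of features counted early, features without a late count, the largest falls of features counted late, and the most abundant features that did not pass the test.

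Among the 56 features that did not pass the test, the most abundant were rows 619, 371, 516 and 434. Row 619 had 34214 and 39442 CPM at 12 and 14 cells, against 25973, 32092, 16539, 19790 and 26570 CPM at 1-3 cells. Its levels did not overlap between the groups, yet the log2 change of 0.61 ± 0.42 did not pass (SE, edgeR adjusted p = 0.19). It was counted in all 29 libraries. Row 434 had 9959 and 9154 CPM at 12 and 14 cells, against 8348, 5404, 5815, 7347 and 5009 CPM at 1-3 cells (log2 change 0.59 ± 0.37, SE, edgeR adjusted p = 0.14). With RLE scaling, which moved the median by 0.78, both passed, with log2 changes of 1.43 for row 619 and 1.39 for row 434.

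Rows 371 and 516 varied more among the early embryos than between the groups. Row 371 had 8192 and 5923 CPM at 12 and 14 cells, against 16299, 17314, 8528, 2133 and 1800 CPM at 1-3 cells (log2 change -0.37 ± 0.56, SE, edgeR adjusted p = 0.55). It was high in both 1-cell embryos and low in the 3-cell embryo and the 2-cell embryo of numbered cells. Row 516 had 7228 and 6865 CPM at 12 and 14 cells, against 4770, 6066, 5427, 7703 and 14831 CPM at 1-3 cells (log2 change -0.16 ± 0.42, SE, edgeR adjusted p = 0.74). Without the 3-cell embryo its log2 change was 0.50, and the signs of rows 371 and 516 also turned with RLE scaling, to 0.38 and 0.68. With each library thinned to at most 1000 counts both turned and passed the test as higher at 12-14 cells, with log2 changes of 1.29 (edgeR adjusted p = 0.016) for row 371 and 1.05 (edgeR adjusted p = 0.041) for row 516.

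More features were counted at 12-14 cells when every embryo sum was brought to the same depth. At 7117 counts, 574 and 492 detected rows were expected in the 12-cell and 14-cell embryos, against 337, 314, 333, 328 and 318 in the early embryos. The means were 533 ± 58.3 at 12-14 cells (SD, n = 2) and 326 ± 9.77 at 1-3 cells (SD, n = 5). The groups did not overlap, and the difference was 207 rows (exact permutation test over embryos, two-sided p = 0.0952, the smallest that 21 arrangements allow). The design therefore cannot pass 0.05.

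Single libraries showed the same order. At 500 counts, 8 libraries of the 12-cell embryo had 181.6 to 212.8 detected rows and 7 of the 14-cell embryo 169.8 to 195.0, against 146.4 to 165.2 in the 9 early libraries. A late embryo sum joins 10 libraries and an early one 1 to 3, while these library values do not depend on how many were joined. The part of joining in the difference between embryo sums was not tested. Of the 766 rows with any count, 265 were counted at 12-14 cells and not at 1-3 cells, 82 at 1-3 cells and not at 12-14 cells, and 419 in both. The 488 rows not tested were sparse, with a median of 3 counts over the 7 embryos and at most 50 counts in an embryo.

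**Figure D3:**
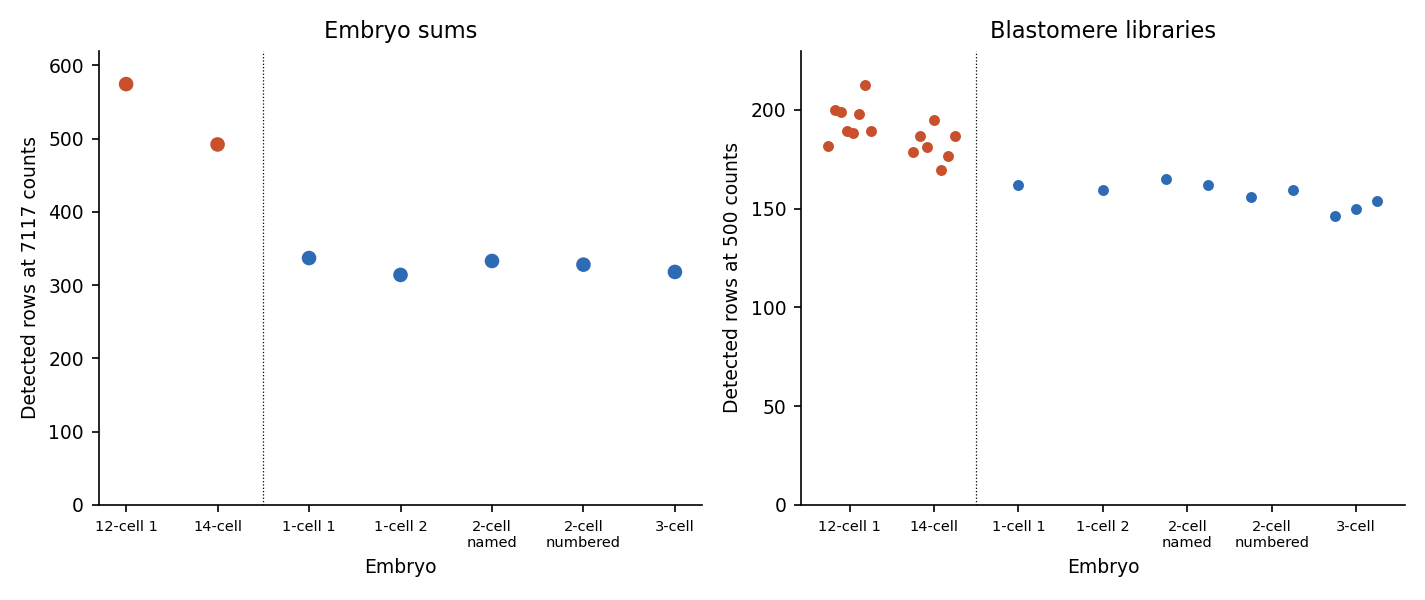
The left plot gives the expected number of detected rows in each embryo at 7117 counts, and the right plot that of each library with at least 500 counts at that depth. Both late embryos (574 and 492) lie above the 5 early embryos (314 to 337), and the late libraries (169.8 to 212.8) above the early ones (146.4 to 165.2).

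Embryos of the same group were more alike than embryos of different groups. Across the 278 features tested, the Spearman correlation of log2 CPM was 0.93 between the 12-cell and 14-cell embryos and 0.82 to 0.95 (median 0.92) among the 10 pairs of early embryos. Across the groups it was -0.38 to -0.20 (median -0.30, 10 pairs). These values describe genes that were kept by the filter on these embryos, genes are not independent, and pairs share embryos.

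Between the late embryos themselves the higher features lay close together, as did most features not called. In the groups with 0, 1 or 2, and at least 3 early embryos counted, 30 of 33, 22 of 24 and 60 of 64 features were within a factor of 2 between 12 and 14 cells. So were 47 of the 56 features not called. The higher features were called for their levels in these same 2 embryos, so their closeness is a description. Of the 85 lower features counted in both late embryos, 51 were within a factor of 2. Another 8 differed by more than 4-fold, among them rows 435, 776, 994, 1047 and 1223, and all 8 were higher in the 12-cell embryo. Their counts were low, such as 9 at 12 cells and 1 at 14 cells for row 994, and with 1 embryo of each stage this difference was not tested. The DP4 library of the 12-cell embryo held 7 of the 8 counts of row 1223 and 6 of the 9 counts of row 435. Without that library the 12-cell share of counts was 1.41 times the 14-cell share for row 1223, against 9.79 times with it, and 4.22 times for row 435, against 11.01 times with it. The other features did not lean on it as much. Row 776 went from 6.12 to 7.04 times, row 994 from 11.01 to 11.26 and row 1047 from 6.73 to 7.74. The features not named here went from 6.12 to 7.04, from 6.12 to 4.93 and from 4.28 to 3.52 times.

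The change was seen in every late library used. The higher features held 50% to 71.01% of the counts outside the 6 rows in libraries of 12-cell embryo 1 and 64.3% to 78.8% in 14-cell libraries, against 8.62% to 11.5% in the early libraries. The lower features held 5.52% to 30.0% in the 12-cell libraries and 3.37% to 13.2% in the 14-cell libraries, against 64.2% to 72.1% in the early ones. No late library overlapped an early one. The features were called on these same embryos, so the shares are a description.

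**Figure D4:**
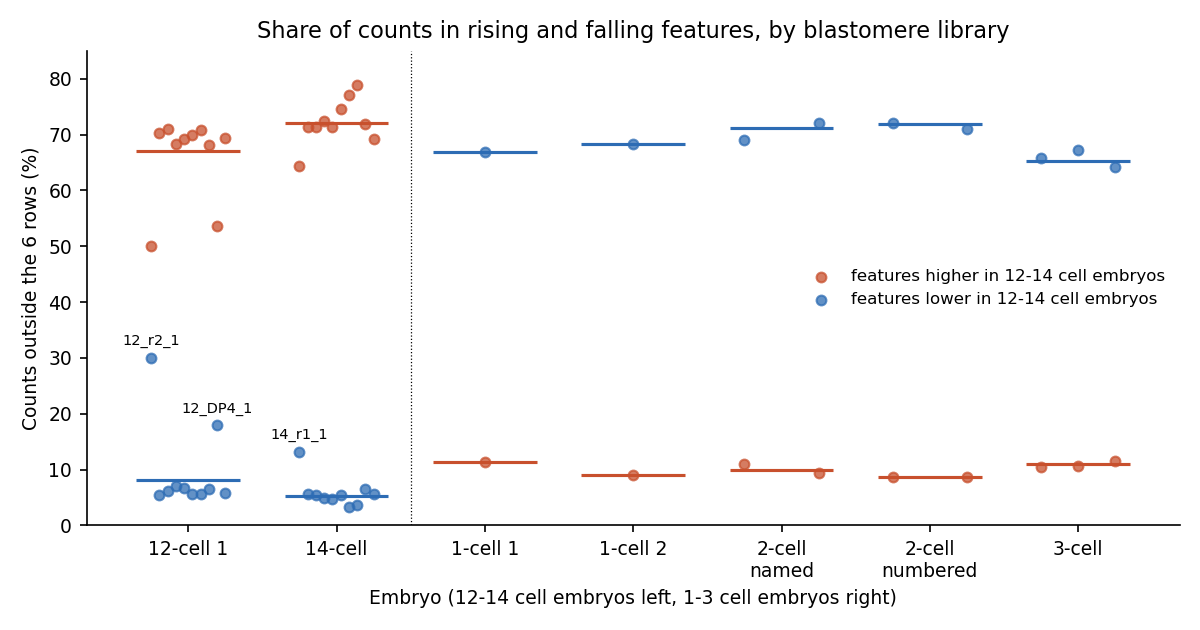
Each pair of points is 1 library, with the percentage of its counts outside the 6 rows that fell in features higher (red) or lower (blue) at 12-14 cells, and lines give the embryo sums. Late libraries lie at 50% or more in the higher features and at 30.0% or less in the lower ones, and the 3 named libraries have the largest shares of the lower features.

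Among the late libraries 3 stood apart in retaining the lower features, those titled r2 and DP4 of the 12-cell embryo and r1 of the 14-cell embryo. To keep the measure apart from the call, features were taken from the fit without the 12-cell embryo, which called 80 lower features, or without the 14-cell embryo, which called 73. In the DP4 library these lower features held 16.2% of 1176 counts (95% Wilson interval 14.2 to 18.5), against 4.48% to 6.36% in 8 other libraries of that embryo. In the r2 library they held 27.8% (21.8 to 34.7) of 180 counts. In the r1 library they held 11.5% (7.67 to 17.0), against 2.77% to 5.26% in the 9 other libraries of the 14-cell embryo. Among the libraries used, r2 and r1 were also the shallowest of their embryos, with 91.3% and 92.9% of their counts in the 6 rows, while the DP4 library had 71.2%, within the range of the others. The part of depth in the r2 and r1 shares was not tested.

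The DP4 share rested in large part on a pair of features. Row 36 had 60 counts in the DP4 library, 55.05% of its counts in that embryo, and row 479 had 30 of 49. Per 1000 counts, row 36 had 51.02 in the DP4 library and 50 in the r2 library, against 2.69 to 10.9 in the other 8. Row 479 had 25.5 in the DP4 library and 11.1 in the r2 library, against 1.08 to 5.38 in the other 8. Without both rows, the lower features held 9.30% of the DP4 counts, against 3.76% to 5.89% in the 8 libraries. Of all lower features called, 54 were higher per count in the DP4 library than in the other 9 together, 42 were lower and 5 had 0 counts in both. The labels do not say what the title DP4 stands for, or whether that library holds a single cell.

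The only library titled P4, of the 14-cell embryo, was among those left out, with 27 counts outside the 6 rows. Lower features held 25.9% of them (Wilson interval 13.2 to 44.7). The r2 library of the same embryo, also left out, had 28.6% (11.7 to 54.6) of 14 counts, so the P4 library did not stand apart from it, and at this depth neither can be set against the DP4 library. Without the r2, DP4 and r1 libraries, an alternative chosen after seeing the data, 214 features were called, 97 of them lower, and 211 of the 214 were among the 222.

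A few higher features were also spread unevenly over the libraries of an embryo. Among features with at least 30 counts in an embryo, the chi-square per degree of freedom against an even share per count had a median of 1.51 in the 12-cell embryo (72 features) and 1.40 in the 14-cell embryo (89 features). It was above 3 in 6 and 11 of them. In the 3-cell embryo, with 3 deeper libraries, the median was 2.33 and 61 features were above 3, so such spread was not particular to the late embryos. Higher features above 3 in both embryos were rows 671 and 1309 and the feature with the fifth-largest rise above, chosen after their values were seen.

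Row 1309 had 77 of its 198 counts of the 14-cell embryo in the library titled r10, which held 4.44% of that embryo's counts, a level of 157.8 per 1000. The other 9 libraries had 1.03 to 50.7 per 1000. In the 12-cell embryo its highest levels were 27.8 per 1000 in r2 and 22.7 in r10, and its lowest was 0.85 in DP4. The highest 14-cell levels, in r10, r9, r1 and r7, lay in the libraries used with the largest shares of the 6 rows, 86.3% to 92.9%. At 12 cells these shares were largest in r2 (91.3%) and r4 (85.1%, with 19.7 per 1000 of row 1309), while r10 had 74.6%. The part of the 6 rows in this spread was not tested. Row 1309 also varied among the early embryos, with 11886 and 26654 CPM at 12 and 14 cells, against 19744, 1654, 4523, 4977 and 1448 CPM at 1-3 cells, so that its groups overlapped although it passed the test (log2 change 1.60 ± 0.55, SE, edgeR adjusted p = 0.0087).

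The feature with the fifth-largest rise ranged from 0 to 23.2 per 1000 counts in the 12-cell libraries and from 0 to 15.0 in the 14-cell libraries. Row 671 was counted in every late library, at 22.2 to 112.2 per 1000 in 12-cell libraries and 16.5 to 107.96 in 14-cell libraries. Its highest 12-cell level was in DP4, where the feature with the fifth-largest rise was at 1.70. Blastomeres with the same number in both embryos are not stated to be the same cell.

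**Figure D5:**
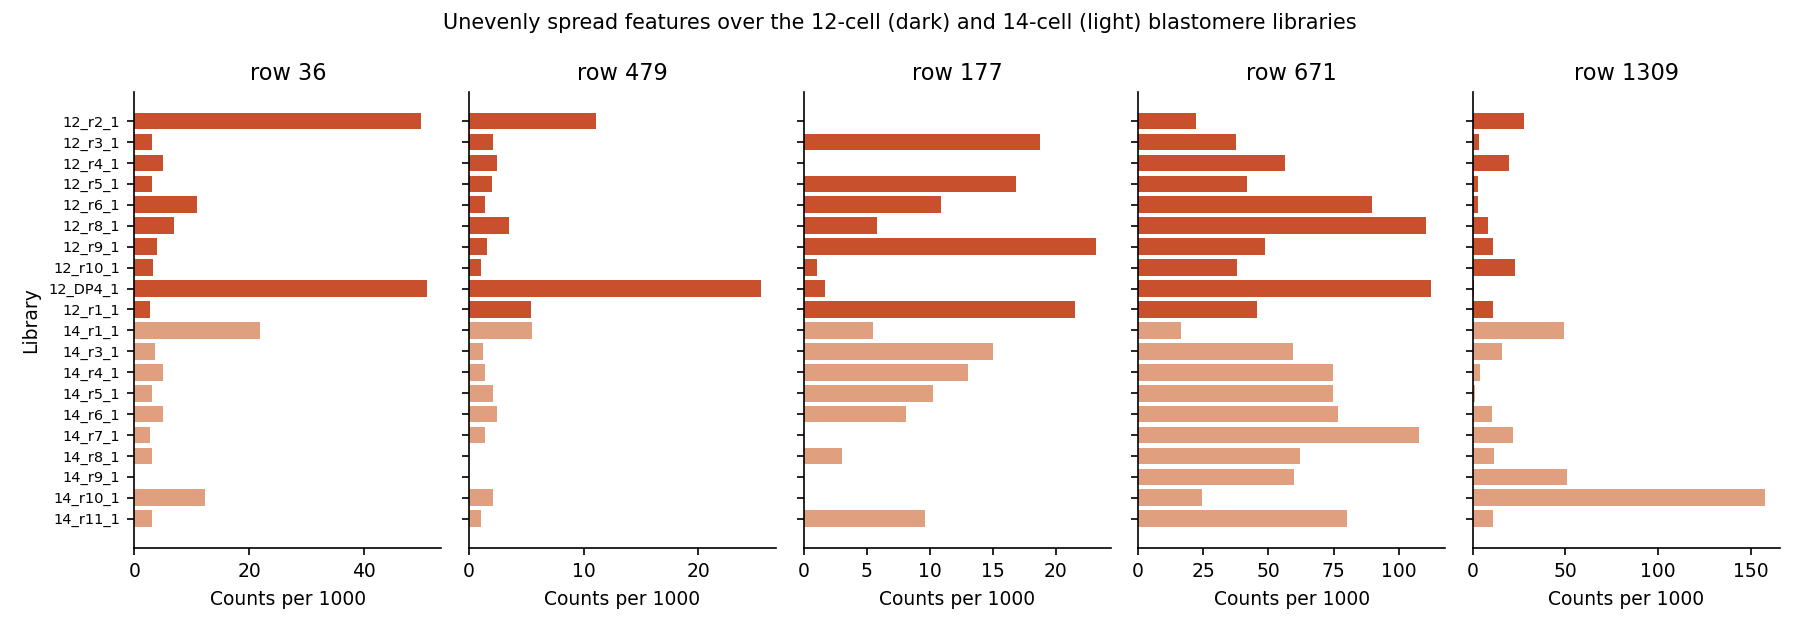
Bars give the counts per 1000 counts outside the 6 rows in each of the 20 late libraries, for the lower features with a chi-square per degree of freedom above 3 in the 12-cell embryo (rows 36 and 479) and the higher features above 3 in both late embryos (the other 3 plots). Rows 36 and 479 peak in the DP4 library (51.02 and 25.5) and row 1309 in r10 of the 14-cell embryo (157.8).

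Embryos that took no part in the calls differed among themselves at about 8 cells. In 8-cell embryo 1, of the same number series, the higher features held 17.0% of the counts outside the 6 rows and the lower features 56.98%, nearer to the 1-3 cell embryos than to the 12-14 cell embryos. In the 8 embryos of 6 to 10 cells of the series of higher sample numbers, 4 of them also labelled as 8 cells, they held 52.2% to 64.9% (median 61.5%) and 7.12% to 17.5% (median 9.35%). These 8 embryos thus lay nearer to the 12-14 cell embryos. In 12-cell embryo 2, of the higher numbers, the shares were 65.6% and 9.00%, against 67.1% and 8.16% in 12-cell embryo 1. They were 56.3% and 10.7% at 20 cells. Embryos labelled as 8 cells therefore disagreed between the number series, with only 8-cell embryo 1 in the series compared here, while the 12-cell embryos were close. The stage at which the change began cannot be read from these shares.

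Some of the named features showed the same disagreement and others did not, on a scale that joins all 20 embryos and was not tested. Row 539 had 285 CPM in 8-cell embryo 1 and a median of 10733 CPM (5994 to 16070) in the 8 embryos of 6-10 cells of the higher numbers, then 18572 CPM in 12-cell embryo 2 and later, in the late gastrula embryo, 174.4 CPM. Row 424 had 570 CPM, a median of 7787 CPM, 11260 CPM and 10513 CPM in that order. Both were thus low in 8-cell embryo 1 alone among embryos of 6 to 10 cells, and at the late gastrula stage row 539 was low and row 424 high.

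Among the features that fell, row 488 had 13465 CPM in 8-cell embryo 1, against a median of 1212 CPM (101.9 to 7430) in the 6-10 cell embryos of the higher numbers. Row 779 had 1995 CPM in 8-cell embryo 1, against a median of 123.4 CPM, and 64.995 CPM (4 counts) in 12-cell embryo 2. Row 722 had 712 CPM in 8-cell embryo 1, against a median of 181.8 CPM, so that it was low in both number series. Row 439, with 0 counts in both late embryos of the comparison, had 285 CPM in 8-cell embryo 1, a median of 283 CPM in the 6-10 cell embryos of the higher numbers, 325 CPM (20 counts) in 12-cell embryo 2, then 1273 CPM at the late gastrula stage. Row 875, also without a late count, had 0 counts in 8-cell embryo 1, against a median of 190.8 CPM. It had 211 CPM (13 counts) in 12-cell embryo 2 and 708 CPM at the late gastrula stage.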

How the data were processed

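The authors deposited raw counts, whole numbers per row and blastomere library, not normalized. Per the submitters' processing notes, the tools were CASAVA 1.8, Bowtie2 2.1.0 and HTSeq 0.5.4p3, without their roles. The genome build, and whether reads or distinct molecules were counted, are not given in the sources used here. The copy of the table used here ends inside a row after 1572 complete ones, so totals are of these rows. All 189 columns matched a sample number.

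Rows 789, 955, 956, 1147, 1149 and 1177 and libraries with fewer than 50 detected rows were left out, and counts were summed per embryo. Groups were compared with edgeR 4.0.16 (R 4.3.3; quasi-likelihood test, TMM, filterByExpr, Benjamini-Hochberg), which was tested on simulated data. DESeq2 1.42.0 and RLE were alternatives. Detected rows at a depth are the expected number under thinning. Wilson and exact count intervals are at 95%. Intervals and the floor of 3 counts cover counting error only. A p-value here reflects how embryos of a group vary, and their cultures are not stated. The closest pair of early embryos was that of the 2-cell embryos of named and of numbered cells. It gave 2.31 as chi-square per degree of freedom (208 features). The pair of 1-cell embryos gave 2.50 (213 features), and no embryo was treated as a repeat.

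Named features were those highest at 12-14 cells with no early count (6), the largest rises of features counted in at least 3 early embryos with at least 500 CPM late (5), those with no late count (up to 6, of which 3 exist), the largest falls of features counted in both late embryos with at least 500 CPM early (5) and the most abundant not called (4). A list of cell type markers matched 0 rows. The groups, members and lists were chosen with earlier results of these data known.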

Additional observations from a re-analysis of the deposited data

Results flagged for a closer look

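In 20 sets of 5 early embryos tested for a value far from the rest, 2 were marked, and chance marks about 1 in 20. The level of row 779 was 2120.2 CPM in 1-cell embryo 1, while the other 4 early embryos had 2844 to 3101 CPM. The 3-cell embryo had 25575 counts outside the 6 rows, against 7117 to 8255 in the other 4. It also had the highest levels of row 671 and row 516 among the early embryos, and the part of depth in these was not tested. Groups of 2 embryos could not be examined in this way.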

How the results depend on the processing

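No paired analysis was possible because each embryo is of 1 stage and the numbers in the titles only number embryos within a stage. Under DESeq2 62 features were lower, and with no filter on low counts 367 were called, 256 of them higher. In 1 fit of all 20 embryos 342 were called, 240 higher. With each library thinned to at most 1000 counts, 63 were called, 43 higher and 20 lower, and the sign of 2 called features turned, row 229 (log2 change -1.33, and 0.55 when thinned) and row 688 (-1.23, and 0.39 when thinned). Fewer features are tested under that setting.

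The median log2 change of 0.24 was 1.03 with RLE, 1.06 with DESeq2, 2.41 without the filter, -0.20 with the 6 rows kept, 0.081 with libraries of at least 1000 counts, -0.15 with thinned libraries, 0.52 with the 2-cell libraries as 1 embryo, 0.89 with 8-cell embryo 1 as a separate group and 1.77 with all 20 embryos. Leaving out each embryo in turn gave medians of 0.16 to 0.71. The cause of these moves was not tested.

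Over 18 settings the 19 called named features kept their call and sign wherever they were tested. All 19 passed the filter on low counts through a single group, so that they had to differ. Of the others, all 4 passed as higher with thinned libraries. Row 371 had log2 changes of 0.38 with RLE, 0.37 with DESeq2 and 1.29 thinned. Row 516 had 0.68 with RLE, 0.68 with DESeq2, 0.20 with the 6 rows kept and 1.05 thinned, and -0.32 to 0.50 with an embryo left out. The difference in detected rows stayed positive, at 88.3 with the 6 rows kept and 153.8 at a depth of 3558 counts. Late libraries are shallow, so that bounds on features with 0 late counts are low.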
